A study of Mus musculus with 7 samples.

Results

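The receptors of the Sonic hedgehog pathway, its inhibitor Sufu and the Gli transcription factors are described here across sorted cells of the embryonic mouse cortex. The genes are Ptch1, Smo, Boc, Cdon, Gas1, Sufu, Gli1, Gli2 and Gli3. They were chosen by name, not by a measured value, though with earlier results of these data known. All 9 of 9 had exactly 1 probe set that carries no other gene symbol, among 19938 genes measured in all. Levels are the deposited log2 signals, so a difference of 1 is a change of 2-fold, and levels of different genes are not compared, since each probe set has its own brightness.

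Cortices of C57BL/6 mice were electroporated on embryonic day 13, and cells carrying green fluorescent protein were sorted 24 h later, on embryonic day 14. The 4 control samples are labelled wild type, and in the 3 Trnp1 knockdown samples the construct targeted Trnp1, a nuclear protein of cortical progenitors. Both groups share the electroporation, the fluorescent marker and the sort, and nothing in the labels describes the knockdown construct, what else the control construct carried, or how many embryos were pooled. The samples are labelled biological replicates, and if they do not come from separate animals the p-values measure only the spread between these samples. The comparison asks how the pathway's transcripts stood 1 day after Trnp1 was lowered.

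Hedgehog signalling starts when a secreted ligand such as Sonic hedgehog binds Patched (Ptch1), with Boc, Cdon and Gas1 as co-receptors. Binding releases Smoothened (Smo), which acts through the primary cilium to free Gli proteins from Sufu. Gli2 is mainly an activator, Gli3 mainly a repressor, and Gli1 is an activator that is itself switched on by the pathway, as is Ptch1. In the forebrain the ligand is known for patterning the ventral telencephalon, whereas Gli3 is needed for the dorsal telencephalon from which the cortex forms.

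The start regions of 3 genes are shown because Ptch1 is the standard transcriptional readout of Gli activity and Gli2 and Gli3 are the factors that act on it. Sequences are from RefSeq, build GRCm38.p6, each on the gene's own strand, 5′ to 3′, and hold the 250 bases before the annotated start. The windows are chr13:63565736-63565985 on the minus strand for Ptch1, chr1:119053620-119053869 on the minus strand for Gli2 and chr13:15463473-15463722 on the plus strand for Gli3. Capitals mark the 6 letters CCACCC, or GGGTGG on the other strand, which form the core of the Gli recognition sequence.
Ptch1: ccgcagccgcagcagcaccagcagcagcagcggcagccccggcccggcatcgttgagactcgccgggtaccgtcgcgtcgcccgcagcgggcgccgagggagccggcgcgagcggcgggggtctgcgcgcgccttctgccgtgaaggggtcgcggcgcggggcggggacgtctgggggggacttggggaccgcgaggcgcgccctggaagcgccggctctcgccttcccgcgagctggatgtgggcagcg
Gli2: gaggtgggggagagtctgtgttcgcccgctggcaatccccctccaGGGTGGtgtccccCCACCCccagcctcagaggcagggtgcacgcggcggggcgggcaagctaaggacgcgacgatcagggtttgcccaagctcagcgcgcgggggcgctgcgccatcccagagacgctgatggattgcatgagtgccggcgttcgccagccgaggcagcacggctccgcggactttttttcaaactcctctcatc
Gli3: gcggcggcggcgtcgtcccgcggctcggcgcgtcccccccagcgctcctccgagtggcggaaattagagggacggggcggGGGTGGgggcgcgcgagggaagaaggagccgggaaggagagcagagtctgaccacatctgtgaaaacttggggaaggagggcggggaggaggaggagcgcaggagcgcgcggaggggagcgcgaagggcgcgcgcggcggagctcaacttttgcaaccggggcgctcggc
The core occurs 2 times in this Gli2 stretch, 1 time in that of Gli3 and 0 times in that of Ptch1. RefSeq start regions were matched for 7 of the 9 genes, and Gli1 and Boc had no entry. In windows of 300 bases (250 before to 50 after the start), the longer sequence GACCACCCA, which contains the core, was searched on both strands. It was in none of the 7, exactly or with 1 mismatch, against 0.253% (exact) and 6.74% (at most 1 mismatch) of 32851 RefSeq start regions of that length. The core was found in 3 of the 7 windows (Smo, Gli2 and Gli3) and in 31.5% of all windows. A match is only a run of letters, and a missing match says nothing of binding outside the window.

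The array medians lay between 4.398 and 4.611, and no arrays held identical values. Trnp1 differed by -0.40 (SE 0.12), a signal of 75.8% of control, with all 3 knockdown arrays below all 4 control arrays. An exact two-sided permutation test gave p = 0.0286, the smallest value the 35 splits allow, and the adjusted p by limma was 0.825. All 14 radial glia and all 10 intermediate progenitor markers were above the median gene in all 7 arrays, as were 11 of 12 neuronal markers, so the sorted cells carried the transcripts of embryonic cortex. By limma, 0 of 19938 genes (0%) had an adjusted p under 0.05. Before adjustment 5.81% of genes had a p under 0.05, with 2.2% higher and 3.61% lower in knockdown samples (439 and 719 genes, and 232 and 1040 with the array medians set equal). Without knockdown replicate 2 these counts were 882 and 1522, and the smallest adjusted p by limma was 0.168.

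Some arrays stood apart in markers of cells outside the cortical lineage. The mean over 10 measured genes of cortical hem and choroid plexus was 1.49 above the control mean in control replicate 4 and 0.78 above it in knockdown replicate 2, against -0.66 to -0.19 in the other arrays. Ttr, which encodes the choroid plexus protein transthyretin, was at 12.6 in control replicate 4, 11.98 in knockdown replicate 2 and 9.86 in control replicate 3, and at 4.004 to 4.34 in the others. The 13 measured genes of the ventral and GABA lineage, which arises in the ventral telencephalon, had a mean difference of 1.54 in knockdown replicate 2. This mean was 0.36 and 0.21 in knockdown replicates 1 and 3 and lay between -0.12 and 0.08 in controls. All 13 had higher group means in knockdown samples, and the list's mean log2 level was 4.12 to 4.32 in controls and 4.45 to 5.78 in knockdown samples. Dlx2, a homeobox factor of that lineage, was at 8.48 in knockdown replicate 2 and between 4.87 and 5.61 in the other arrays. Knockdown replicate 1 stood apart in other lists. All 10 endothelial genes had higher group means in knockdown samples (median 0.87), with a list mean of 2.09 in knockdown replicate 1, 0.996 in knockdown replicate 2, 0.0088 in knockdown replicate 3 and 1.604 in control replicate 4, against -0.71 to -0.35 in the other controls. All 19 measured genes of G2 and M phase had lower group means (median -0.53), with a list mean of -1.25, 0.20 and -0.66 in knockdown replicates 1 to 3 and between -0.53 and 0.43 in controls. Results below are given with and without single arrays where it matters.

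**Figure D1:**
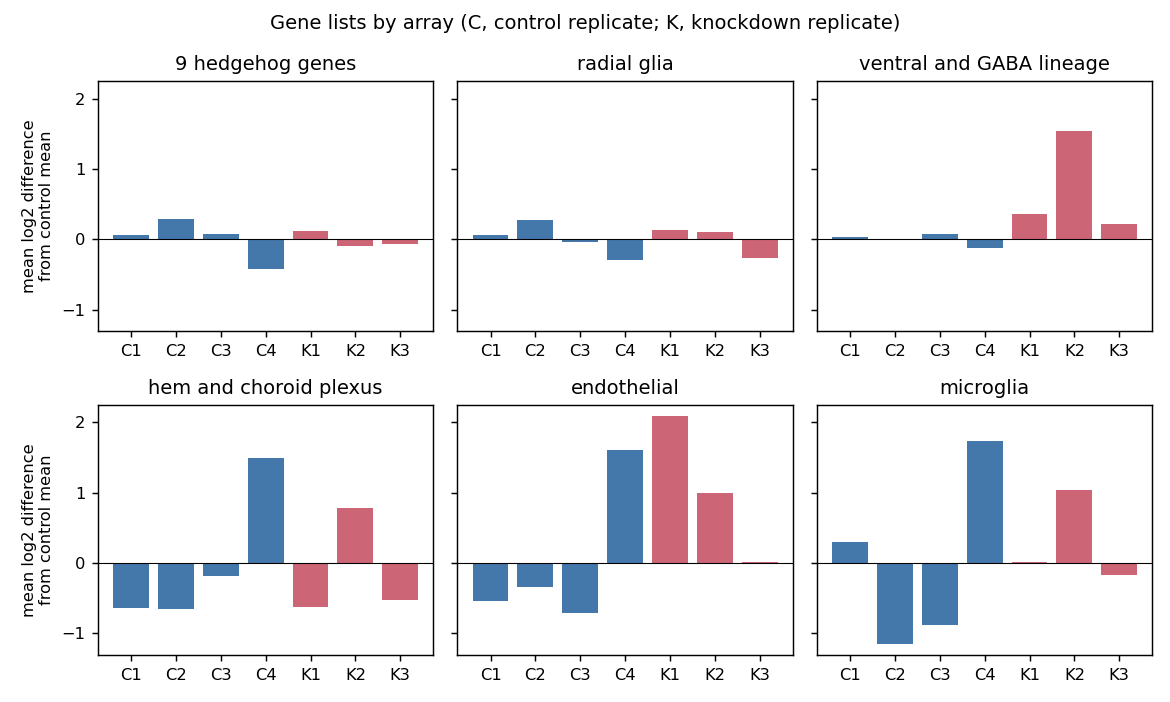
Mean log2 difference from the control mean (vertical axis, log2 units) of 6 gene lists in each of the 7 arrays; blue bars are control (C) and red bars knockdown (K) replicates, and each bar is 1 array. The 9 hedgehog genes range only from -0.42 (C4) to 0.29 (C2), while the ventral list reaches 1.54 in K2 and the hem and choroid plexus list 1.49 in C4.

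None of the 9 genes passed the test between knockdown and control. By limma with Benjamini-Hochberg adjustment over all genes, 0 of 9 had an adjusted p under 0.05, beside 0% of all genes, and 0 of 9 had an unadjusted p under 0.05, beside 5.81% of all genes. The unadjusted count depended on the arrays used. It was 1 of 9, lower in knockdown samples, without control replicate 4 (Sufu) and without knockdown replicate 1 (Gas1). Over all 19938 genes the lower counts of these 2 fits were 721 and 469. The count was also 1 of 9 with the replicate number as a block (Gas1, lower), and 0 under the other alternatives. In each of the 9 genes the 2 groups overlapped, where 2.59% of all genes were higher and 3.07% lower without overlap. The differences ran from -0.55 in Sufu to 0.33 in Cdon, with 5 genes higher and 4 lower and a median of 0.022, against a median of -0.001 over all genes. Over the 7903 genes with mean levels in the same range as these 9, the median was -0.094. With 4 and 3 arrays the intervals are wide, and for each of these genes except Boc they include changes of 1.5-fold or more in at least 1 direction, so the data do not show that the genes stayed the same.

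**Figure D2:**
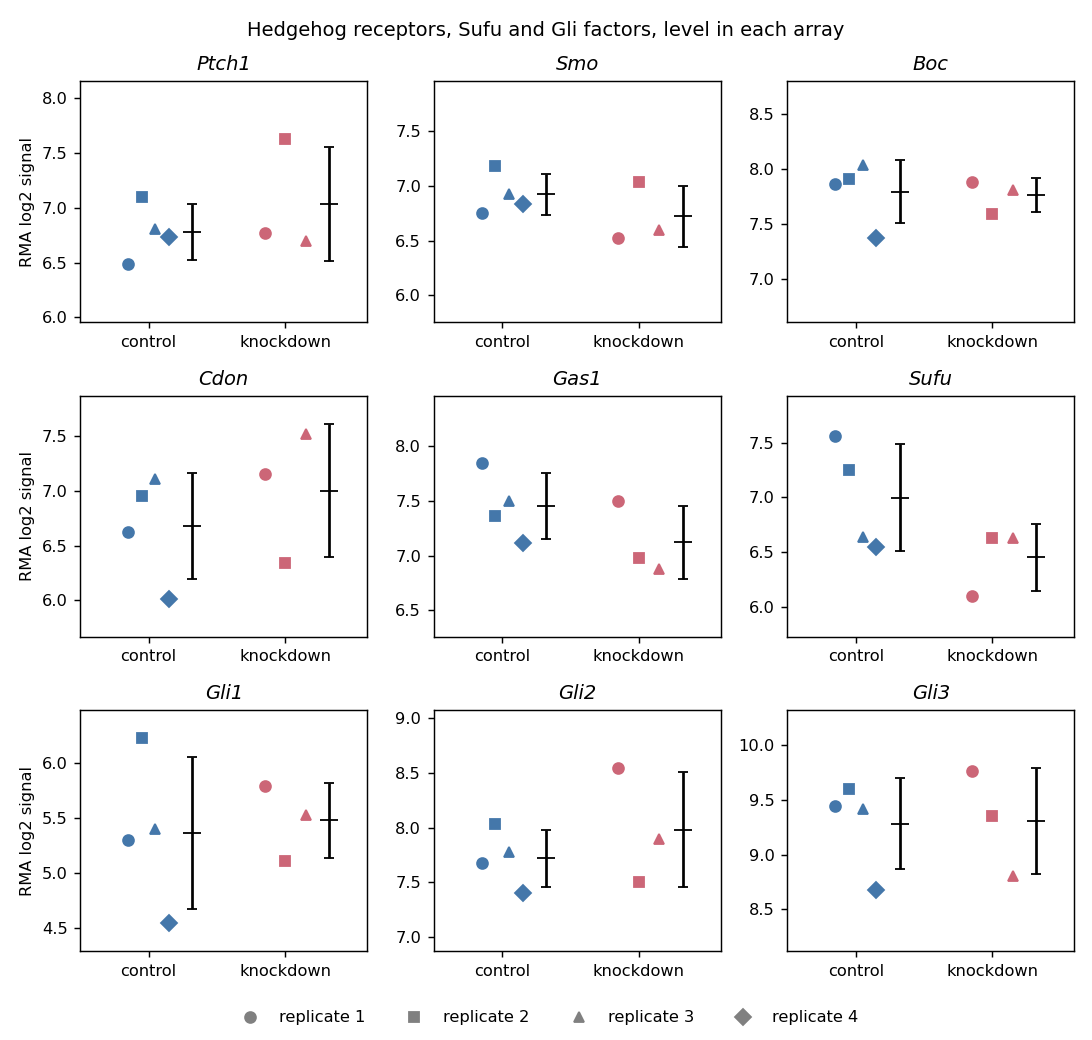
RMA log2 signal (vertical axis; every panel spans the same 2.2 log2 units) of the 9 genes in 4 control (blue) and 3 knockdown (red) arrays; symbols give the replicate number, and black marks are the group mean with SD. The groups overlap in every panel, and control replicate 4 is the lowest array for Boc, Cdon, Gli1, Gli2 and Gli3.

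Among the receptors, Ptch1 (Entrez 19206), which binds the ligand and holds Smoothened inactive, had log2 levels of 6.48, 7.10, 6.80 and 6.73 in control replicates 1 to 4 and of 6.77, 7.63 and 6.70 in knockdown replicates 1 to 3. Knockdown replicate 2 was the highest of all arrays, and the other 2 knockdown arrays lay inside the control range. The means were 6.78 ± 0.254 (SD, n = 4) and 7.03 ± 0.518 (SD, n = 3), a difference of 0.25 (SE 0.26, 95% interval -0.35 to 0.85; adjusted p = 0.871 by limma). The sign rested on that 1 array, with a difference of -0.044 without knockdown replicate 2. It is the array in which Dlx2 and the ventral list stood highest, as did the lists of mural and meningeal genes (0.84) and of erythroid genes (0.92). The microglia list (1.03) and the hem and choroid plexus list (0.78) were also high there. The part of any such cells in the Ptch1 value was not tested. In bulk RNA, more cells of a kind and more transcript per cell cannot be told apart.

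Smo (Entrez 319757), the membrane protein that passes the signal inward, was at 6.75, 7.19, 6.93 and 6.84 in controls and at 6.53, 7.04 and 6.60 in knockdown samples. Knockdown replicates 1 and 3 lay below every control, and knockdown replicate 2 lay among the controls. The difference was -0.20 (SE 0.17, 95% interval -0.60 to 0.19), or 0.869-fold, from 6.92 ± 0.189 (SD, n = 4) to 6.72 ± 0.277 (SD, n = 3), with adjusted p = 0.845 by limma. Without knockdown replicate 2 it was -0.36, still with an adjusted p of 0.423 by limma. Knockdown replicate 2 was thus the highest knockdown array for both Smo and Ptch1, and neither gene passed with or without it.

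The co-receptors did not share a direction. Boc (Entrez 117606), an immunoglobulin-domain co-receptor also known in axon guidance, was at 7.86, 7.91, 8.03 and 7.37 in controls and at 7.89, 7.59 and 7.81 in knockdown samples. Every knockdown array lay within the control range. The difference was -0.032 (SE 0.18, 95% interval -0.45 to 0.38, that is 0.734-fold to 1.30-fold), the narrowest interval after that of Smo. Its sign turned after a further quantile normalization (0.11) and after cyclic loess normalization (0.10).

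Cdon (Entrez 57810), the close relative of Boc, varied far more. Its levels were 6.62, 6.95, 7.11 and 6.02 in controls and 7.15, 6.34 and 7.52 in knockdown samples, so control replicate 4 and knockdown replicate 2 were the 2 lowest arrays. The difference of 0.33 (SE 0.35, 95% interval -0.49 to 1.14) was within the spread of either group (SD 0.484, n = 4, and SD 0.605, n = 3). It was 0.66 without knockdown replicate 2, 0.11 without control replicate 4 and 0.44 without both, and the smallest adjusted p of these fits was 0.46 by limma.

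Gas1 (Entrez 14451), a co-receptor anchored in the membrane by a lipid, was at 7.84, 7.36, 7.49 and 7.12 in controls and at 7.50, 6.98 and 6.88 in knockdown samples. Knockdown replicates 2 and 3 lay below all controls, and knockdown replicate 1 was higher than every control but replicate 1. The difference was -0.33 (SE 0.22, 95% interval -0.84 to 0.18; adjusted p = 0.825 by limma), and it kept its sign with each array left out, from -0.52 to -0.20. Among the 3 co-receptors the group means therefore differed by -0.33, -0.032 and 0.33 for Gas1, Boc and Cdon.

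Sufu (Entrez 24069), which binds Gli proteins in the cytoplasm and holds them back, had the largest difference and the smallest p of the 9 genes. Its levels were 7.56, 7.25, 6.64 and 6.55 in controls and 6.10, 6.63 and 6.63 in knockdown samples. The controls fell into 2 high and 2 low arrays, and knockdown replicates 2 and 3 matched the low ones, so only knockdown replicate 1 lay below every control. The means were 6.9998 ± 0.485 (SD, n = 4) and 6.45 ± 0.305 (SD, n = 3), a difference of -0.55 (SE 0.28, 95% interval -1.20 to 0.11) or 0.685-fold, with an unadjusted p of 0.0902 and an adjusted p of 0.825 by limma. It stayed negative with each array left out, from -0.70 without control replicate 4 to -0.36 without control replicate 1, and was -0.79 (adjusted p = 0.406 by limma) without control replicate 4 and knockdown replicate 2 together. By unadjusted p it was number 2130 among the 19938 genes.

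**Figure D3:**
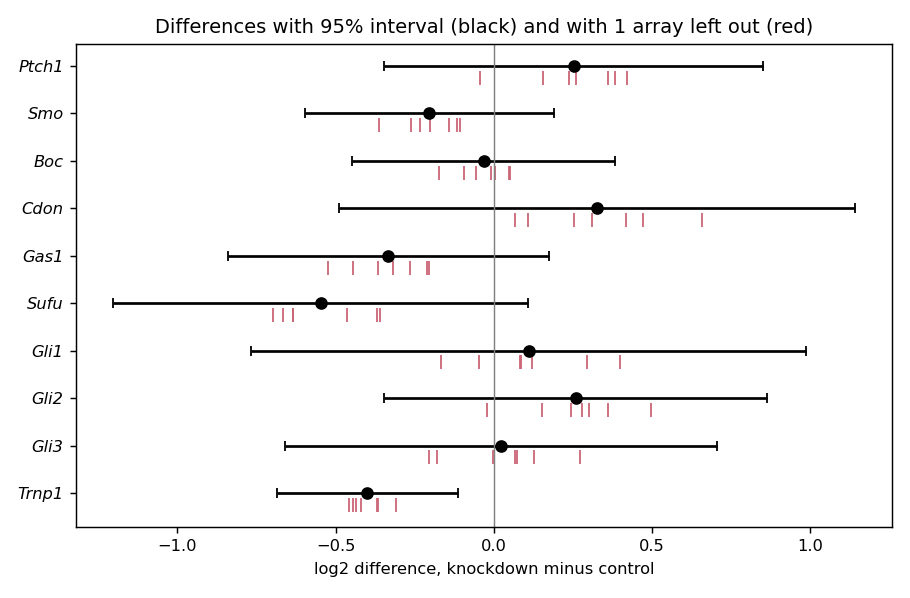
Log2 difference, knockdown minus control (horizontal axis), of the 9 genes and Trnp1; black points are the difference over all 7 arrays with limma's 95% interval, and red ticks are the values with each array left out in turn. Every interval of the 9 genes crosses 0, while that of Trnp1 (-0.69 to -0.11) does not; the red ticks of Sufu, Gas1, Smo and Cdon stay on 1 side of 0.

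The 3 Gli factors, the end points of the pathway, did not separate the groups either. Gli1 (Entrez 14632), the activator that reports pathway activity, was at 5.30, 6.23, 5.401 and 4.54 in controls and at 5.79, 5.11 and 5.53 in knockdown samples. The controls alone spanned both the highest and the lowest array, and all knockdown arrays fell between them. The difference was 0.11 (SE 0.37, 95% interval -0.77 to 0.99), an interval from 0.588-fold to 1.98-fold, and its value became -0.17 when control replicate 4 was left out and 0.399 when control replicate 2 was. Its spread around the group means (0.578) was the widest of the 9 genes.

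Gli2 (Entrez 14633) was at 7.67, 8.03, 7.78 and 7.40 in controls and at 8.54, 7.51 and 7.89 in knockdown samples. Knockdown replicate 1 was the highest array, and the other 2 lay in the control range. The difference of 0.26 (SE 0.26, 95% interval -0.35 to 0.87; adjusted p = 0.869 by limma) rested on that array, and it was -0.021 without it. It is the array with the highest endothelial mean (2.09) and the lowest mean of G2 and M phase genes (-1.25), whose part in the Gli2 value was not tested. Ptch1 and Gli2 thus had nearly equal differences from different single arrays.

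Gli3 (Entrez 14634), the main Gli repressor of the dorsal telencephalon, was at 9.44, 9.60, 9.42 and 8.68 in controls and at 9.76, 9.36 and 8.80 in knockdown samples. Knockdown replicate 1 was above all controls, while knockdown replicate 3 was close to the low control replicate 4. The means of 9.28 ± 0.414 (SD, n = 4) and 9.31 ± 0.481 (SD, n = 3) differed by 0.022 (SE 0.29, 95% interval -0.66 to 0.71; adjusted p = 0.990 by limma). With each array left out in turn the value lay between -0.21 and 0.27. The 95% interval runs from 0.632-fold to 1.63-fold, which limits the size of a loss or gain of Gli3 transcript that these arrays could have missed.

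The order of the arrays differed between the readouts of the pathway. Knockdown replicate 2, with the highest Ptch1 level (7.63), had the lowest Gli1 level of the knockdown arrays (5.11). Control replicate 2 had the highest Gli1 level (6.23) and the highest Ptch1 level among controls (7.10). Hhip, a hedgehog-binding inhibitor that is also a target of the pathway, was at 3.40 in knockdown replicate 2, within the control range of 3.19 to 3.44. All of its values lie below the lowest array median over all probe sets (4.398), where RMA compresses differences, so Hhip is a weak readout here.

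Much of the variation among the 9 genes followed single arrays rather than groups. Control replicate 4 was the lowest of the 7 arrays for 5 of the 9 genes, whereas it was the lowest for 13.2% of genes of like level and for 16.7% of all genes. The mean over the 9 genes was 0.42 below the control mean in that array and lay between 0.06 and 0.29 above it in the other controls. In knockdown replicates 1 to 3 it was 0.11, -0.09 and -0.07. The radial glia list was also at its lowest in control replicate 4 (-0.30). It was nearly as low in knockdown replicate 3 (-0.27), where the mean over the 9 genes was -0.07. Pax6, a transcription factor of cortical progenitors named after its values were seen, was at 7.27 in control replicate 4 and at 8.08 to 8.55 elsewhere. The mean over 17 hedgehog target genes was lowest in control replicate 4 too (-0.21). The microglia list (1.73) and the hem and choroid plexus list (1.49) were at their highest in the same array. The endothelial list was high there too (1.604) and highest in knockdown replicate 1 (2.09), where the mean over the 9 genes was 0.11 above the control mean. In knockdown replicate 2 the microglia list was at 1.03 and the hem and choroid plexus list at 0.78, and the mean over the 9 genes was -0.09. What part such cells had in the low values was not tested. Without control replicate 4, 3 of the 9 genes were higher and 6 lower, with a median of -0.17.

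The spread within groups was wide for these genes. The standard deviation around the group means had a median of 0.387 over the 9 genes, against 0.326 over genes of like level and 0.234 over all genes. Smo (0.228) and Boc (0.244) were near the median of all genes, while Gli1 and Cdon (0.578 and 0.536) were at the 92nd and 90.1th percentiles. The same difference between groups would therefore have been easier to detect in Smo or Boc than in Gli1 or Cdon.

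The other genes of the pathway were described from lists written from general knowledge of hedgehog signalling, though with earlier results of these data known. The genes named from each list were the 4 with its smallest p, so groups that stand apart in them are no separate result. Of 8 genes of ligands and ligand release, 4 were higher and 4 lower, with a median of -0.0005, and 0 passed at an adjusted or unadjusted p under 0.05. Shh, which encodes the ligand, was at 4.25, 4.51, 4.53 and 4.23 in controls and at 4.18, 4.12 and 4.23 in knockdown samples, a difference of -0.20 (SE 0.12). All of these values lie below the lowest array median over all probe sets (4.398) except those of control replicates 2 and 3, and RMA compresses differences of such dim probe sets. The ligand gene Ihh differed by 0.15 (SE 0.10), the secreted release factor Scube2 by 0.16 (SE 0.14), and Disp1, the transporter that releases the ligand, by -0.43 (SE 0.36). Disp1 differed by -0.84 with knockdown replicate 2 left out and by -0.078 with knockdown replicate 3 left out, and Scube2 by 0.027 without knockdown replicate 3.

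Of 10 further genes of surface components and their partners 8 were measured, 4 higher and 4 lower, with a median of -0.026. Arrb1, a beta-arrestin that has been linked to Smoothened traffic, was at 4.66, 4.54, 4.52 and 5.29 in controls and at 5.37, 5.47 and 5.56 in knockdown samples. All knockdown arrays lay above all controls, though control replicate 4 was close to them. Of the 8 genes 1 was higher and 0 lower without overlap, beside 2.59% and 3.07% of all genes. The difference was 0.71 (SE 0.20, adjusted p = 0.825 by limma) and did not pass. The ciliary proteins Evc and Evc2, which work with Smoothened, differed by 0.27 (SE 0.28) and -0.099 (SE 0.11), and the ubiquitin ligase Mgrn1 by -0.14 (SE 0.19). Evc turned to -0.025 when knockdown replicate 1 was left out and was 0.50 when knockdown replicate 2 was, and Mgrn1 was -0.0097 without control replicate 1 and 0.00025 without knockdown replicate 1.

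Of 20 regulators that process Gli proteins 18 were measured, 15 lower and 3 higher, with a median of -0.20, and 0 passed at an adjusted p under 0.05 by limma. Lower values were also common among genes in the level range of the 9 hedgehog genes, 4908 of 7903, with a median of -0.094. Before adjustment 2 of the 18 were lower and 0 higher at a p under 0.05, beside 3.61% lower and 2.2% higher over all genes. At that threshold 0 of the 18 were lower when control replicate 2, knockdown replicate 1 or knockdown replicate 3 was left out. Without knockdown replicate 2 the lower count was 5 of 18, beside 1522 of 19938 genes. Without knockdown replicate 3, 1 of the 18 was higher, beside 469 of 19938 genes. Itch, a ubiquitin ligase that acts with Numb on Gli1, was at 8.09, 8.22, 8.002 and 7.93 in controls and at 7.40, 7.91 and 7.57 in knockdown samples (-0.43, SE 0.15). Spop, the adaptor through which Cul3 marks Gli2 and Gli3 for degradation, was at 8.65, 8.83, 8.97 and 8.63 in controls and at 8.34, 8.52 and 8.43 in knockdown samples (-0.34, SE 0.12). In both genes all knockdown arrays lay below all controls, and neither passed (adjusted p = 0.825 by limma for each). Of the 18 genes 2 were lower and 0 higher without overlap, beside 3.07% and 2.59% of all genes. Prkar1a, a regulatory subunit of protein kinase A, differed by -0.32 (SE 0.15) and the casein kinase gene Csnk1e by -0.27 (SE 0.16), and by -0.16 and -0.091 without knockdown replicate 3. The low median of this list depended on the scaling, with -0.058 after a further quantile normalization and -0.050 after cyclic loess normalization, when 12 and 11 of the 18 genes were lower. With the array medians set equal it was -0.26, with 16 lower. The list mean was -0.14, -0.077 and -0.25 in knockdown replicates 1 to 3 and -0.048 to 0.056 in controls. Over genes in the level range of the 9, these means were -0.11, 0.048 and -0.19, and -0.059 to 0.028.

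Genes of the primary cilium, the antenna on which the pathway runs, went both ways. Of 41 genes 39 were measured, 25 lower and 14 higher, with a median of -0.12, and 0 passed at an adjusted p under 0.05 by limma. Before adjustment 3 of the 39 were lower and 2 higher at that threshold, beside 3.61% and 2.2% of all genes, and with any 1 array left out the lower count lay between 0 (without control replicate 1) and 5 (without knockdown replicate 2). The median was -0.007 without knockdown replicate 3. Fuz, a planar cell polarity effector needed for ciliogenesis, was at 5.36, 5.19, 5.50 and 4.67 in controls and at 5.67, 5.95 and 6.02 in knockdown samples (0.70, SE 0.21), with the groups apart. Without overlap 2 of the 39 genes were higher and 1 lower, beside 2.59% and 3.07% of all genes. The intraflagellar transport genes Ift27, Ift80 and Ttc21b differed by -0.99 (SE 0.40), -0.42 (SE 0.17) and -0.50 (SE 0.21), and for each of them the groups overlapped. Ift27 was lowest in knockdown replicate 1, at 5.62, and its difference was -0.53 without that array and -1.35 without knockdown replicate 2.

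Of 18 further hedgehog target genes 17 were measured, 11 higher and 6 lower, with a median of 0.046 that was -0.019 with the array medians set equal. The split turned to 7 higher and 10 lower without knockdown replicate 1 (median -0.082) and to 8 and 9 without control replicate 4 (median -0.064). By limma 0 of them had a p under 0.05 before adjustment, in either direction. Hhip was at 3.19, 3.44, 3.36 and 3.26 in controls and at 3.91, 3.40 and 3.39 in knockdown samples, high only in knockdown replicate 1 (0.25, SE 0.16, and 0.081 without that replicate). Every one of these values is below the lowest array median over all probe sets (4.398). Olig2, a factor of ventral progenitors and of oligodendrocytes, was highest in knockdown replicate 2 at 4.70 and lay between 3.61 and 4.32 in the other arrays (0.35, SE 0.24, and 0.12 without that replicate). Olig1 differed by -0.18 (SE 0.15), and Foxm1, a mitotic transcription factor, by -0.399 (SE 0.32). Foxm1 was -0.087 without knockdown replicate 1, the array lowest in G2 and M phase genes, and -0.73 without knockdown replicate 2, and Olig1 was -0.084 without control replicate 1.

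**Figure D4:**
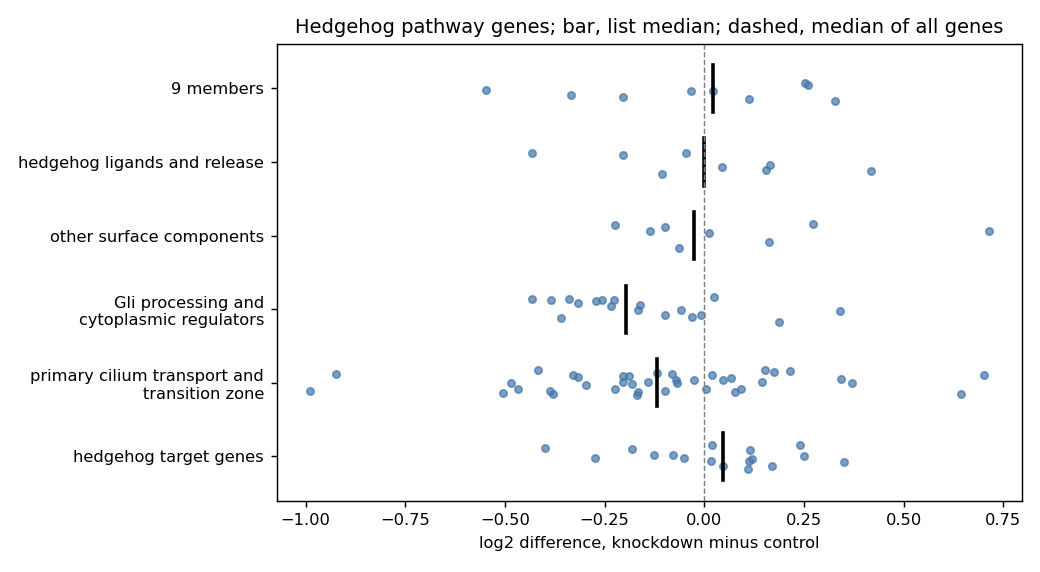
Log2 difference, knockdown minus control (horizontal axis), of each measured gene of the 9 and of 5 pathway lists (rows; points, jittered vertically); black bars are list medians and the dashed line is the median of all genes. The medians run from -0.20 for the Gli processing regulators to 0.046 for the target genes, and no point is a gene that passed the adjusted test.

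The genes closest in profile to Ptch1 and Gli3 were found by the root mean square difference over the 7 arrays after each gene was centred on its mean. Among 9967 genes with a mean level above the median gene, those nearest to Ptch1 were Rdm1 (0.0691 log2 units), Amigo3 (0.135) and Sdccag8 (0.142), where the median gene was at 0.439. Like Ptch1, each of them was highest in knockdown replicate 2, with Rdm1 at 6.28 there and at 5.31 to 5.76 in the other arrays. Nearest to Gli3 were Casp2 (0.0725), Wdr83 (0.0753) and Yae1d1 (0.0772), where the median gene was at 0.464, and all 3 were lowest in control replicate 4. With 7 arrays and this many genes, near matches arise readily. A shared highest or lowest array follows largely from how these genes were picked.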

How the data were processed

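The deposited table holds log2 signals of 35556 probe sets on 7 arrays, which the authors made with Affymetrix Expression Console 1.2 by the RMA method, according to the submitters' processing notes. RMA subtracts background, normalizes by quantiles and summarises probes, so dim probe sets show compressed differences. No genome build for the annotation is given in the sources used. Arrays carry no count depth, and their number limits the precision. Values lay between 1.97 and 13.7.

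Array annotation gave 1 symbol for 21789 probe sets, several for 1621 and none for 12146. Symbols were updated by Entrez identifier (21698 matched) from RefSeq GRCm38.p6. Each gene took its probe set with the highest mean, which left 19938 genes. The groups were compared with limma 3.58.1 under R 4.3.3 (lmFit and eBayes, two-sided, no covariates, 5 residual and 2.36 prior degrees of freedom), adjusted by Benjamini-Hochberg over all genes with a threshold of 0.05. The script was tested on simulated data.

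The 9 genes and the lists were chosen with earlier results of these data known. Named genes are these 9, Trnp1, the 4 with the smallest p in each pathway list, the highest-level gene of a marker list described, and the 3 nearest profiles to Ptch1 and Gli3. Pax6 was named after its values were seen. Alternatives were other priors, weights, scalings, filters, a mean over probe sets, a replicate block and each array left out. Leaving out control replicate 4 and knockdown replicate 2 together was added after the data were seen.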

Additional observations from a re-analysis of the deposited data

Results flagged for a closer look

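Of 52 sets of 4 control values checked, 6 had 1 array far from the other 3 by Dixon's criterion, which flags about 1 group in 20 by chance. None of them was 1 of the 9 hedgehog genes. The sets were the 9 genes, Trnp1, the named pathway genes, the nearest profiles and the mean of each list. Ttr, Dlx2 and Pax6 were not checked. Mgrn1 was at 7.37 (7.366) in control replicate 1 against 6.84 to 6.89 in the other controls. Olig1 was at 4.55 (4.554) in the same array against 4.14 to 4.18. Yae1d1, named for its likeness to Gli3, was at 8.14 (8.144) in control replicate 4 against 8.94 to 9.03. Control replicate 4 was also far above the other controls in the mean difference of the endothelial list (1.604, against -0.71 to -0.35) and of the erythroid list (0.62, against -0.28 to -0.17). The same held for the further hedgehog surface components and their partners (0.43, against -0.19 to -0.088).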

How the results depend on the processing

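Under all 18 alternatives, 0 genes and 0 of the 9 hedgehog genes had an adjusted p under 0.05 by limma, and the smallest adjusted p of the 9 was 0.406. Sufu, Gas1, Smo, Cdon and Trnp1 kept their direction under all of them, Trnp1 between -0.47 and -0.31. Gli1 turned to -0.040 and Gli3 to -0.0027 with array weights, Gli3 to -0.043 with equal array medians, and Boc to 0.11 and 0.10 after a further quantile and a cyclic loess normalization. Without control replicate 4 and knockdown replicate 2 together, Gli3 was -0.21 and Ptch1 -0.060. With 1 array left out, Boc ranged from -0.17 to 0.053, Gli1 from -0.17 to 0.399, Gli2 from -0.021 to 0.496, Gli3 from -0.21 to 0.27 and Ptch1 from -0.044 to 0.42. The causes were not tested. With the replicate number as a block, 0 genes passed, and Gli1 and Gli3 were -0.17 and -0.18, the values without control replicate 4, which has no partner of its number. Deviations of same-numbered arrays had correlations of 0.028, -0.051 and 0.072, and those of other pairs ran from -0.196 to 0.14. With so few arrays this cannot tell whether the numbers pair the samples, and no label says what they mark.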
